A study of Sus scrofa with 16 samples.

Results

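The collagens, laminins and matrix glycoproteins described here are 37 genes of the extracellular matrix measured in pig left ventricle. They were chosen by gene symbol: COL followed by a digit, or a symbol that starts with LAMA, LAMB, LAMC, FBN, FBLN, THBS or ADAMTS, or one of a short list (FN1, LUM, DCN, BGN, FMOD, POSTN, SPARC, ELN, LOX, VCAN, TNC, CILP and COMP). They make up 37 of the 6765 genes that carried a single symbol, and 77 of the 23935 probe sets tested. A probe set is the array's unit of measurement, a handful of short probes for a common transcript. Of the 37 genes, 15 had a single probe set and 22 had several, and the probe set with the highest mean over all 16 arrays, called the brightest, stood for the gene. COL1A1, COL4A1, COL6A1, ELN, FMOD and every LAMA gene were not analysed here.

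The tissue came from 16 Yorkshire x Landrace pigs aged 2 to 3 months. There were 8 exercised animals (4 females and 4 neutered males) and 8 sedentary animals (4 females and 4 neutered males), with 1 array for each. All the males were neutered, so no effect in intact males was measured. RNA was taken 4 to 5 weeks after the protocol began, from whole myocardium crushed in liquid nitrogen, and values are deposited log2 signals. The labels give neither the kind of exercise nor its load.

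The cardiac matrix is a mesh of fibrils, sheets and soluble glycoproteins that holds muscle cells, vessels and fibroblasts together. Fibrillar collagens of types I and III carry tension. Laminins and type IV collagen form the basement membrane around each muscle cell and capillary, and matricellular proteins such as tenascin-C and the thrombospondins act on cells more than they bear load. In the heart most fibrillar collagen is made by fibroblasts.

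Some arrays stood apart. Spike-in controls, bacterial RNAs read by 42 probe sets, parted the arrays into a set A of 11 (exercised 1 to 6 and sedentary 1 to 5) and a set B of 5 (exercised 7 and 8, sedentary 6 to 8), a split that the labels do not name. Set B held 0 exercised females and 1 sedentary female. Among single animals, exercised 8 had the highest value of 6 of the 37 genes, and sedentary 4 had the highest of 14. As a check of the tissue, all 11 cardiomyocyte markers measured had mean signals of 11.56 to 14.61 log2, the lowest of them at percentile 98.1 of all probe sets, and 0 of them passed for training. The arrays number 8 per group, which limits the precision of every value.

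No gene of the matrix passed the test for training on its brightest probe set. By limma, with Benjamini-Hochberg adjustment over all 23935 probe sets and a threshold of 0.05, 0 of the 37 genes were higher and 0 were lower in exercised animals, against 10.0% of all genes called in either direction. Calls were rarer among brighter probe sets. With only those above the 40th percentile of signal tested, 631 of 14361 passed, and above the 60th 77 of 9574. Of the 37 genes, 32 and 26 were in these filters, and 0 passed in either. The 10.0% is therefore not matched to the signal of these genes. With all probe sets tested, the smallest adjusted p was 0.0811, for COL3A1. At an unadjusted p under 0.05 there were 2 with positive and 2 with negative differences, 10.8% of the 37, against 22.9% of all genes. The differences, exercised minus sedentary, ran from -0.33 to 0.45 log2 with a median of -0.027, against a median of 0.013 over all genes, and 14 were positive and 23 negative. Without sedentary 4 the median was 0, with 18 positive and 19 negative, and in set A alone it was -0.13, with 12 positive and 25 negative. No gene of the 37 had exercised and sedentary values free of overlap, a pattern found in 2.23% of all genes. In crushed tissue, fewer cells of a type and less RNA per cell cannot be told apart.

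**Figure D1:**
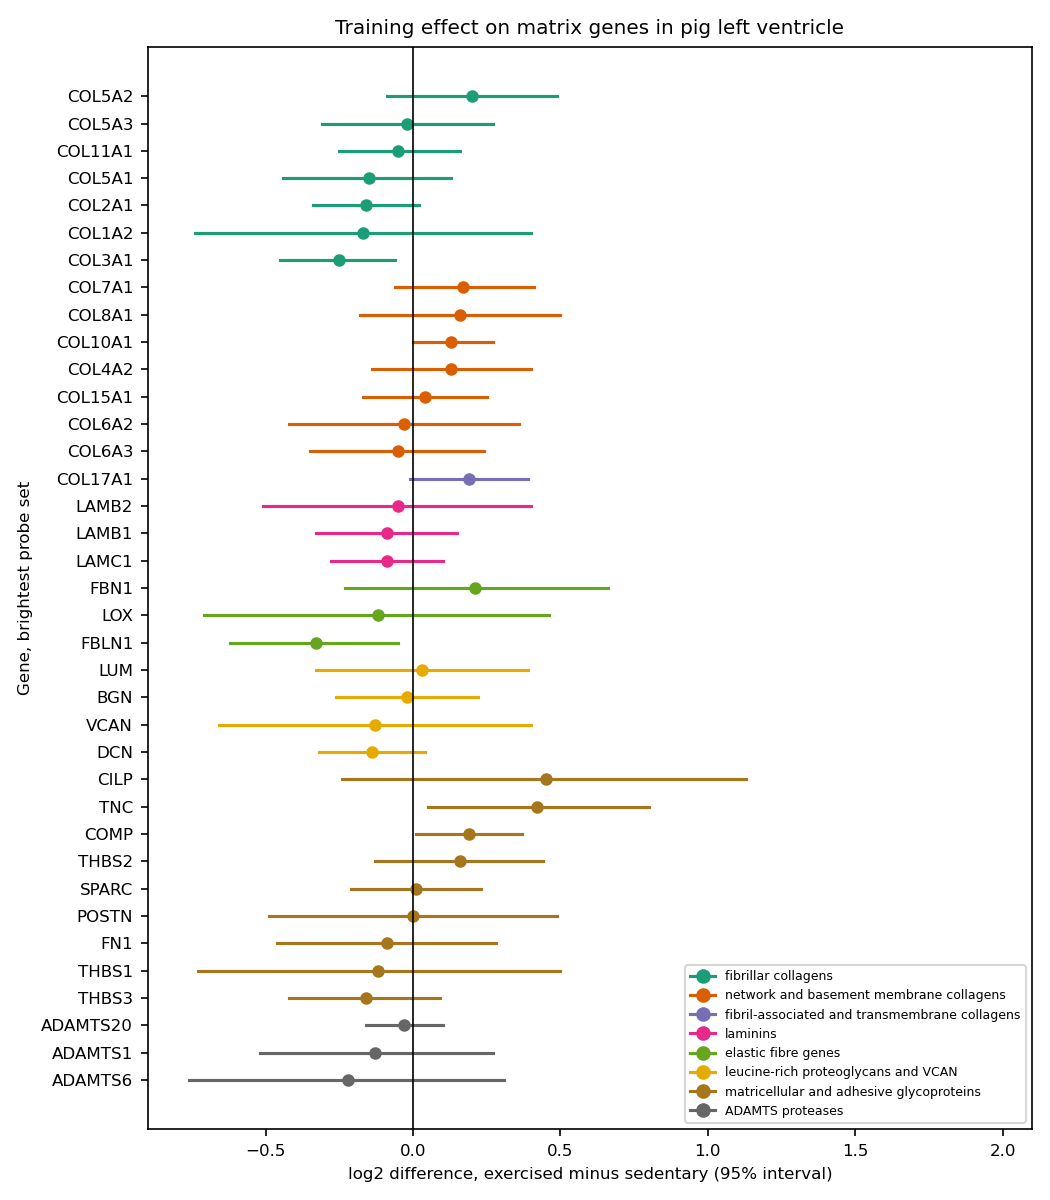
Training effect on the 37 matrix genes, by class. Points are log2 differences, exercised minus sedentary, on the brightest probe set, and lines are 95% intervals from limma. The differences run from -0.33 (FBLN1) to 0.45 (CILP), and none passed an adjusted p of 0.05.

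The intervals bound how large a difference could have gone unseen. The median distance from a difference to the end of its 95% interval was 0.29 log2, the widest was 0.68, and 25 of the 37 intervals lay wholly between -0.5 and 0.5 log2. The matrix genes also had a larger median spread between arrays than all genes, in a fit without array set. Their median residual SD was 0.29 log2, against 0.19 over all genes, and their median standard error was 0.136, against 0.0937. Their median size of difference was 0.13 log2, against 0.11 over all genes.

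Among the 7 fibrillar collagens, 6 had negative differences and the median was -0.15 log2. The signs were not shared by the sexes. In females all but COL5A2 (0.1) were negative. In males COL1A2 (0.23), COL5A1 (0.09), COL5A2 (0.29), COL5A3 (0.26) and COL11A1 (0.1) were positive, and COL2A1 (-0.14) and COL3A1 (-0.29) negative. The difference between the sexes in the effect passed for none of them. COL3A1, which codes for type III collagen, had signals of 7.19, 7.47 and 7.74 log2 (lowest, median and highest) in exercised animals, against 7.47, 7.71 and 7.91 in sedentary animals. Of the 8 exercised animals, 7 lay below the sedentary mean, and the groups overlapped from 7.47 to 7.74. The difference was -0.25 (SE 0.0919, adjusted p = 0.0811), at -0.29 (adjusted p = 0.113) in set A alone. Leaving out 1 animal at a time gave -0.31 to -0.21, and 1 of those 16 fits passed. That was the fit without exercised 8, which had the highest COL3A1 of its group, at -0.31 (adjusted p = 0.0268).

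COL1A2, the second chain of type I collagen, had 7.98, 8.69 and 10.18 log2 in exercised animals, against 8.27, 9.24 and 9.79 in sedentary animals. The exercised range held the sedentary one, and exercised 8 was the highest of all 16 animals. The difference was -0.17 (SE 0.268, adjusted p = 0.75) with all animals and -0.34 (adjusted p = 0.405) without exercised 8. In set A it was -0.47 (adjusted p = 0.159), while the exercised males of set B were 0.68 above its sedentary males, a contrast of 2 against 2 animals whose difference from set A was not tested.

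COL5A1, a type V chain that helps to start type I fibrils, followed the same animals. Its signals were 9.54, 9.69 and 10.64 log2 in exercised animals, against 9.51, 10 and 10.25 in sedentary animals, and 7 of 8 exercised animals lay below the sedentary mean. The difference was -0.15 (adjusted p = 0.522), and -0.27 (adjusted p = 0.1) without exercised 8, whose 10.64 stood above 9.94 in the next exercised animal. COL5A2, another type V chain, was the exception in sign, at 6.39, 6.75 and 7.23 log2 in exercised animals and 6.01, 6.66 and 6.85 in sedentary animals (difference 0.20, adjusted p = 0.384).

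The remaining fibrillar collagens are mostly known from cartilage. COL2A1, of type II collagen, had 6.26, 6.42 and 6.71 log2 in exercised animals, against 6.38, 6.52 and 6.93 in sedentary animals (difference -0.16, adjusted p = 0.249), with 7 of 8 exercised animals below the sedentary mean. COL11A1 differed by -0.05 at a dim 4.84 log2 mean signal, and COL5A3 by -0.02. Dim here means a mean signal no higher than the 40th percentile, 5.57 log2, and 5 of the 37 genes were dim on their brightest probe set. The deposited values hold no detection calls, so whether a dim probe set measured its transcript cannot be told.

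The mean level of the 9 fibroblast markers measured was high where these collagens were high in some animals, and not in others. Relative to each gene's mean over all animals, the marker level ran from -0.49 to 0.43 log2 in exercised animals, against -0.26 to 0.45 in sedentary animals, and its highest values were in exercised 8 (0.43) and sedentary 4 (0.45). Of those 9 markers 0 passed by limma, against 10.0% of all genes, and their median difference was -0.187. At an unadjusted p under 0.05 there were 2, both negative, against 22.9% of all genes in either direction. Their part in the collagen values was not tested. The fibrillar collagen level ran from -0.29 to 0.47 in exercised animals, also with its highest value in exercised 8, against -0.35 to 0.29 in sedentary animals. Among sedentary animals it was highest in sedentary 6 (0.29), where the marker level was 0.07, and it was 0.27 in sedentary 4. In exercised 6 the marker level was -0.45 and the collagen level -0.16.

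**Figure D2:**
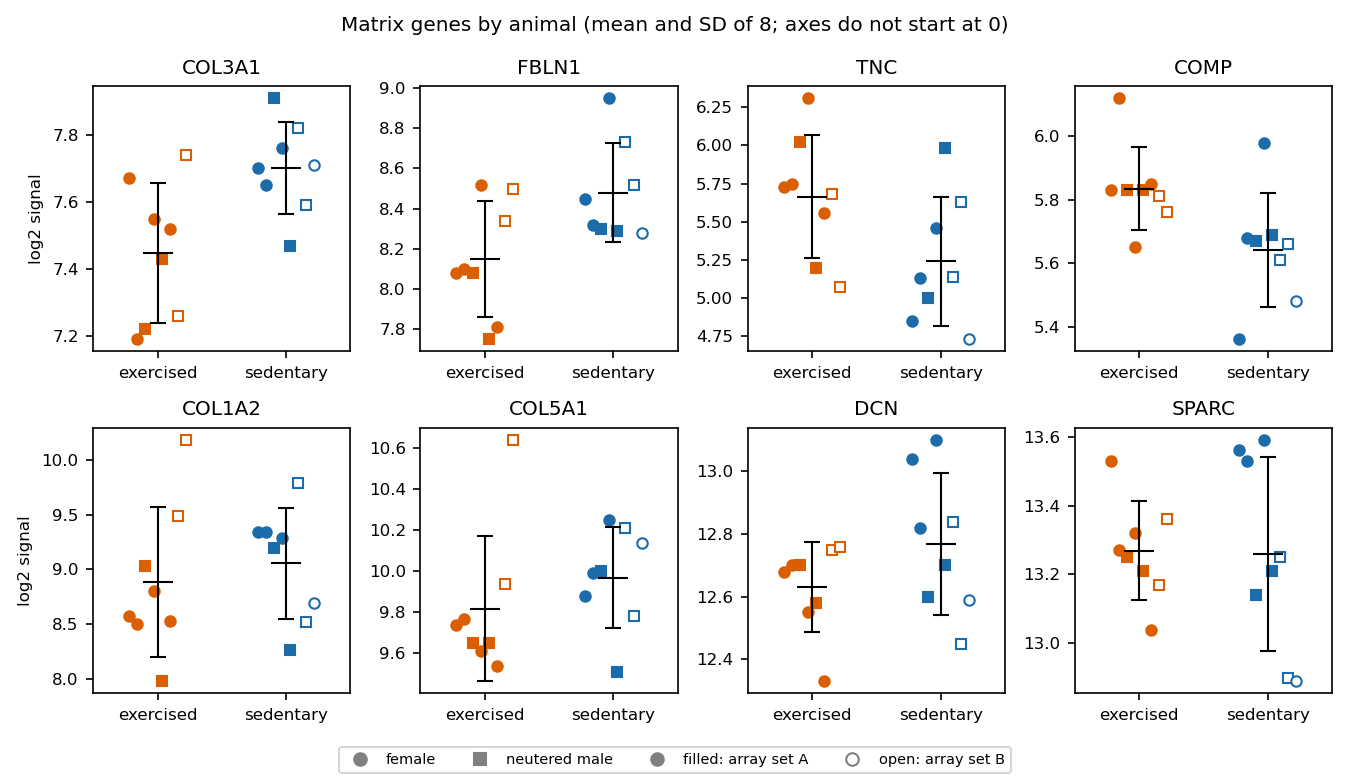
Signals of 8 matrix genes in each animal, in log2, exercised left of sedentary, with the mean and SD of 8 animals. Circles are females and squares neutered males; filled symbols are array set A and open symbols set B. Every panel shows overlapping groups, and exercised 8, the uppermost open square, is the highest of all animals for COL1A2 (10.18) and COL5A1 (10.64).

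The 7 network and basement membrane collagens had 5 positive and 2 negative differences, with a median of 0.13 log2. The median was 0.07 without exercised 8, and 0.03 in set A alone, with 4 positive and 3 negative. COL4A2, a chain of the type IV sheet in basement membranes, had 10.98, 11.64 and 11.98 log2 in exercised animals, against 11.27, 11.46 and 11.7 in sedentary animals. Of the exercised animals 7 of 8 lay above the sedentary mean, while exercised 3 was the lowest of all. The difference was 0.13 (SE 0.127, adjusted p = 0.578). COL15A1, of a collagen that lies next to basement membranes, ran from 11.28 to 11.75 in exercised animals, against 11.02 to 11.84 in sedentary animals (difference 0.04, adjusted p = 0.85).

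The type VI collagens form beaded filaments around cells. COL6A3 had 10.91, 11.3 and 11.63 log2 in exercised animals, against 10.73, 11.45 and 11.85 in sedentary animals (difference -0.05, adjusted p = 0.853). COL6A2 had 8.09, 8.27 and 9.55 in exercised animals, against 8.06, 8.47 and 8.99 in sedentary animals, with exercised 8 again the highest. Its difference was -0.03 (adjusted p = 0.949), and -0.18 (adjusted p = 0.407) without that animal.

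COL8A1, a short-chain collagen of vessel walls, had 6.29, 7.07 and 7.72 log2 in exercised animals, against 6.7, 6.89 and 7.28 in sedentary animals (difference 0.16, adjusted p = 0.591). The lowest and the highest of all 16 values were exercised 5 and exercised 8. Without exercised 5 the difference was 0.31 and passed (adjusted p = 0.0429), and without exercised 8 it was 0.07 (adjusted p = 0.806). COL10A1, a cartilage collagen, was dim, at 5.07 to 5.46 in exercised animals and 5 to 5.4 in sedentary animals (difference 0.13, adjusted p = 0.199). COL7A1, of the anchoring fibrils of skin, was also dim, at 4.88, 5.58 and 5.72 in exercised animals, against 5.06, 5.3 and 5.5 in sedentary animals. Its difference was 0.17 (adjusted p = 0.337), and leaving out 1 animal at a time gave 0.13 to 0.27. Of those 16 fits 1 passed, the fit without exercised 8, the lowest animal, at 0.27 (adjusted p = 0.0367). COL17A1, a transmembrane collagen of skin hemidesmosomes and the only gene of its class, differed by 0.19 (SE 0.0948, adjusted p = 0.218), with 7 of 8 exercised animals above the sedentary mean.

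The 3 laminin chains had differences between -0.09 and -0.05 log2, each within 1 standard error of 0. LAMC1, the gamma chain shared by most laminins, had 11.32, 11.68 and 11.91 in exercised animals, against 11.46, 11.83 and 12 in sedentary animals (difference -0.09, SE 0.0892, adjusted p = 0.589). LAMB1, a beta chain, had 9.85, 10.21 and 10.46 in exercised animals, against 9.94, 10.22 and 10.72 in sedentary animals (difference -0.09, adjusted p = 0.669). LAMB2, the beta chain of neuromuscular and vessel laminins, had a near-zero difference of -0.05 (SE 0.213, adjusted p = 0.911) over a wide range, 9.85 to 10.99 in exercised animals and 9.88 to 11.14 in sedentary animals.

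FBLN1, one of the 3 elastic fibre genes, had the most negative difference of the 37. It codes for fibulin-1, which binds elastic fibres, fibronectin and basement membrane proteins. Its signals were 7.75, 8.09 and 8.52 log2 in exercised animals, against 8.28, 8.39 and 8.95 in sedentary animals. Of the 8 exercised animals 5 lay below every sedentary animal, while exercised 4, 7 and 8 lay within the sedentary range. The difference was -0.33 (SE 0.134, 95% interval -0.62 to -0.05, adjusted p = 0.117), at -0.37 in females and -0.29 in males. It was -0.41 (adjusted p = 0.107) in set A, and -0.26 (adjusted p = 0.211) without sedentary 4, which had the highest value. FBN1, the fibrillin of microfibrils, differed by 0.21 (SE 0.21, adjusted p = 0.58), at 0.07 (adjusted p = 0.857) without sedentary 8 and -0.07 (adjusted p = 0.776) in set A alone. LOX, the enzyme that cross-links collagen and elastin, differed by -0.12 (SE 0.274, adjusted p = 0.827). LOX ran from 6.68 to 9.12 in exercised animals, against 7.31 to 8.79 in sedentary animals, so its interval of -0.71 to 0.46 is wide.

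The small leucine-rich proteoglycans DCN, LUM and BGN coat collagen fibrils and set their width, and VCAN is a large hyaluronan-binding proteoglycan. DCN had 12.33, 12.69 and 12.76 log2 in exercised animals, against 12.45, 12.76 and 13.1 in sedentary animals. All 8 exercised animals lay below the sedentary mean of 12.77, yet 4 sedentary animals had values within the exercised range. The difference was -0.14 (SE 0.0847, adjusted p = 0.326), and -0.10 (adjusted p = 0.5) without sedentary 4. LUM differed by 0.03 (SE 0.171), BGN by -0.02 (SE 0.113) and VCAN by -0.13 (SE 0.249), with adjusted p of 0.935, 0.948 and 0.79. LUM ran from 10.99 to 11.62 in exercised animals and 10.5 to 11.87 in sedentary animals, and VCAN from 7.11 to 8.32 in exercised animals and 7.15 to 8.92 in sedentary animals.

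Among the 9 matricellular and adhesive glycoproteins 5 differences were positive and 4 negative, with a median of 0.01 log2. In set A alone 4 were positive and 5 negative, with a median of -0.11, and without sedentary 4 the median was 0.04. TNC, which codes for tenascin-C, a glycoprotein made in developing and injured tissue, was dim, at 5.07, 5.71 and 6.31 log2 in exercised animals, against 4.73, 5.13 and 5.98 in sedentary animals. Of the 8 exercised animals 6 lay above the sedentary mean, and the groups overlapped from 5.07 to 5.98. The difference was 0.42 (SE 0.177, 95% interval 0.05 to 0.8, adjusted p = 0.133). COMP, a pentameric thrombospondin of cartilage and tendon, had 5.65, 5.83 and 6.12 in exercised animals, against 5.36, 5.67 and 5.98 in sedentary animals. All 8 exercised animals lay above the sedentary mean of 5.64, exercised 4 by the least. The difference was 0.19 (SE 0.084, adjusted p = 0.152), and leaving out 1 animal at a time gave 0.15 to 0.25. Of those 16 fits 1 passed, the fit without sedentary 4, the only sedentary animal above 5.69, at 0.25 (adjusted p = 0.035).

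CILP, a matrix protein of cartilage and heart, had the largest positive difference and the widest spread, at 7.74, 8.54 and 9.41 log2 in exercised animals, against 6.82, 8.01 and 9.43 in sedentary animals. Sedentary 4 was the highest and sedentary 6 the lowest of all 16 animals. The difference was 0.45 (SE 0.321, 95% interval -0.24 to 1.13, adjusted p = 0.415). FN1, which codes for the adhesive protein fibronectin, had 10.23, 10.9 and 11.16 in exercised animals, against 10.42, 10.76 and 11.42 in sedentary animals (difference -0.09, adjusted p = 0.803).

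SPARC, a collagen-binding glycoprotein, had the tightest comparison of this class after COMP. It ran from 13.04 to 13.53 log2 in exercised animals, against 12.89 to 13.59 in sedentary animals, and the difference was 0.01 (SE 0.103, 95% interval -0.21 to 0.23, adjusted p = 0.966). POSTN, which codes for periostin, a product of activated fibroblasts, ran from 9.57 to 10.82 in exercised animals, against 8.9 to 10.65 in sedentary animals. The means were 10.13 ± 0.47 in exercised and 10.14 ± 0.55 in sedentary animals (SD, n = 8 each), but the interval of -0.49 to 0.49 leaves room for sizeable differences. The thrombospondins THBS1, THBS2 and THBS3 differed by -0.12, 0.16 and -0.16 (SE 0.291, 0.135 and 0.121), with adjusted p of 0.85, 0.509 and 0.431. The proteases ADAMTS1, which cuts versican, ADAMTS6 and ADAMTS20 differed by -0.13, -0.22 and -0.03 on their brightest probe sets, with adjusted p of 0.726, 0.639 and 0.832.

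The picture changed on the other 40 probe sets of these genes, of which 28 were dim. By limma 4 of the 40 were higher and 2 lower in exercised animals, 15% of the 40, against 14.3% of all probe sets that were not their gene's brightest and 13.4% of all probe sets. A share near that background is no result about the matrix. In 15 of the 22 genes with several probe sets the signs disagreed among them. Of the 40, 2 (5%) had values free of overlap between the training groups, against 3.36% of all probe sets that were not their gene's brightest and 3.12% of all probe sets.

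Both were dim and stood against the brightest probe set of their gene. A second CILP probe set ranged from 4.66 to 4.8 log2 in the 8 exercised animals, against 5.12 to 5.47 in the 8 sedentary animals. It fell by 0.58 (SE 0.0594, adjusted p = 3.37e-05) with an SD of only 0.04 in exercised animals, while the brightest CILP probe set had a difference of 0.45. A VCAN probe set ranged from 4.71 to 5.32 in exercised animals, against 4.1 to 4.52 in sedentary animals, and rose by 0.63 (SE 0.0863, adjusted p = 0.000285), where the brightest had -0.13. Both calls also held in set A alone, at -0.53 (adjusted p = 0.0032) for CILP and 0.68 (adjusted p = 0.00353) for VCAN.

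ADAMTS1 gave the 1 call that was not dim. Its other probe set, at a mean of 9.42 log2, had 8.78, 9.15 and 9.55 in exercised animals, against 9.25, 9.64 and 10.16 in sedentary animals. All 8 exercised animals lay below the sedentary mean of 9.67, and the groups overlapped from 9.25 to 9.55. It fell by 0.50 (SE 0.13, adjusted p = 0.018), while the brightest probe set, at a mean of 9.69, had -0.13 (SE 0.186, adjusted p = 0.726). In set A alone its difference was -0.59 and did not pass (adjusted p = 0.0592), and with only probe sets above the 60th percentile of signal tested the adjusted p was 0.0889. In the males of set B the difference was -0.35. The difference between the probe sets of ADAMTS1 was not tested.

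The last 3 calls were dim and did not survive leaving out single animals. FN1 rose by 0.40 on a probe set at 3.78 to 4.56 log2 in exercised animals, against 3.42 to 4.14 in sedentary animals (adjusted p = 0.0377). THBS1 rose by 0.29 on one at 4.93 to 5.23, against 4.36 to 4.95 in sedentary animals (adjusted p = 0.0423), and COL8A1 by 0.22 on one at 4.42 to 4.75, against 4.14 to 4.55 in sedentary animals (adjusted p = 0.0359). In set A the adjusted p was 0.224 for FN1, 0.133 for THBS1 and 0.224 for COL8A1. Many single animals also ended these calls. Without exercised 3, for example, FN1 had 0.35 (adjusted p = 0.0747) and THBS1 had 0.25 (adjusted p = 0.0829), and without exercised 1 COL8A1 had 0.19 (adjusted p = 0.0755).

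**Figure D3:**
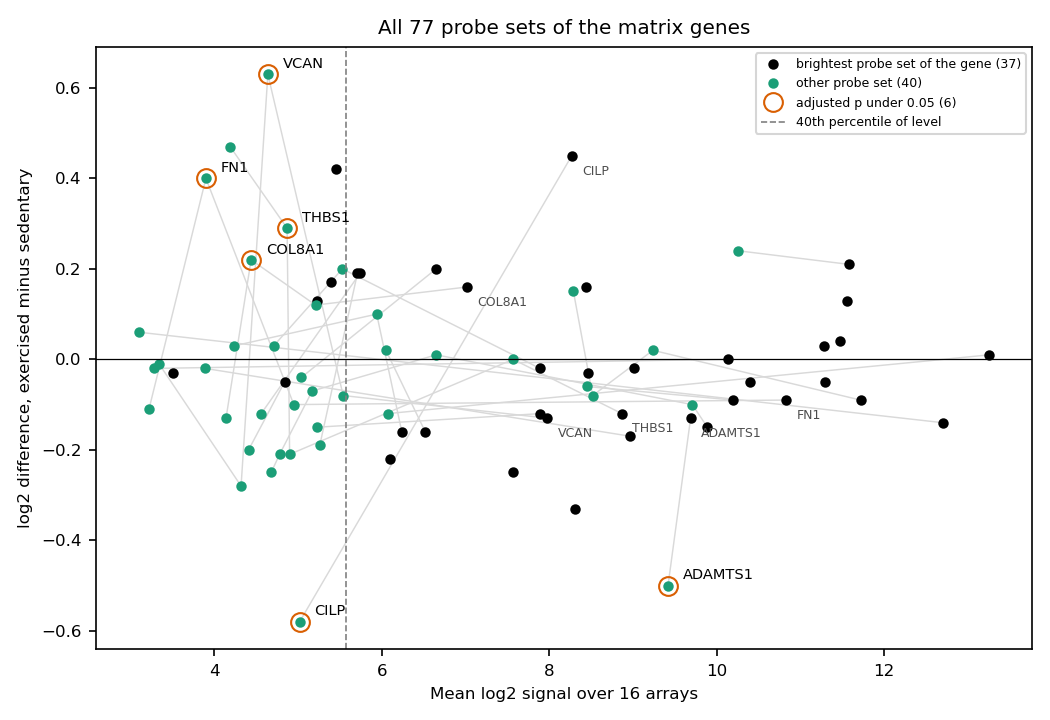
Training difference of all 77 probe sets of the matrix genes against their mean signal (log2 for both axes). Black points are the brightest probe set of each gene and green points the other 40; grey lines join the probe sets of a gene. Of the 6 rings, which mark an adjusted p under 0.05, 5 lie below the 40th percentile of signal (dashed line), and ADAMTS1 at 9.42 does not.

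The next comparison set the sexes apart. In females 0 of the 37 genes passed by limma, against 2.60% of all genes, and in neutered males 0 passed, against 2.57%. At an unadjusted p under 0.05 there were 4 genes in females, against 15.7% of all genes, and 1 in males, against 13.3%. The signs differed between the sexes in 17 of the 37 genes. The difference between the female and the male effect passed for 0 of the 37 genes, against 0% of all genes, with 2 at an unadjusted p under 0.05, against 2.47% of all genes.

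TNC showed the largest difference in females, at 5.84 ± 0.33 log2 in exercised females, against 5.04 ± 0.32 in sedentary females (SD, n = 4 each). That difference of 0.79 did not pass (SE 0.25, adjusted p = 0.0929), and in males it was 0.05 (SE 0.25, adjusted p = 0.956), with 5.49 ± 0.44 in exercised and 5.44 ± 0.45 in sedentary males. The female effect minus the male effect was 0.74 (SE 0.353, adjusted p = 1). On the brightest probe sets, DCN and COL10A1 had the smallest p for this difference. DCN had -0.33 (SE 0.12) in females and 0.05 (SE 0.12) in males, a difference of -0.38 (adjusted p = 1), and COL10A1 had 0.27 in females and -0.01 in males, a difference of 0.28 (adjusted p = 1). COL1A2 had the widest gap, -0.56 in females and 0.23 in males, with a standard error of 0.535 for the gap of -0.79. Over all 77 probe sets, 2 passed as higher and 1 as lower in females, against 476 and 414 of all 23935. In males 1 passed as higher and 1 as lower, against 390 and 512. In both sexes these were the dim CILP and VCAN probe sets described above, and in females also a dim COL5A3 probe set. It had 0.39 (SE 0.0987, adjusted p = 0.0397) in females and 0 in males, and that difference did not pass. All 4 exercised females lay in set A, so sex and array set are in part mixed in these values.

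**Figure D4:**
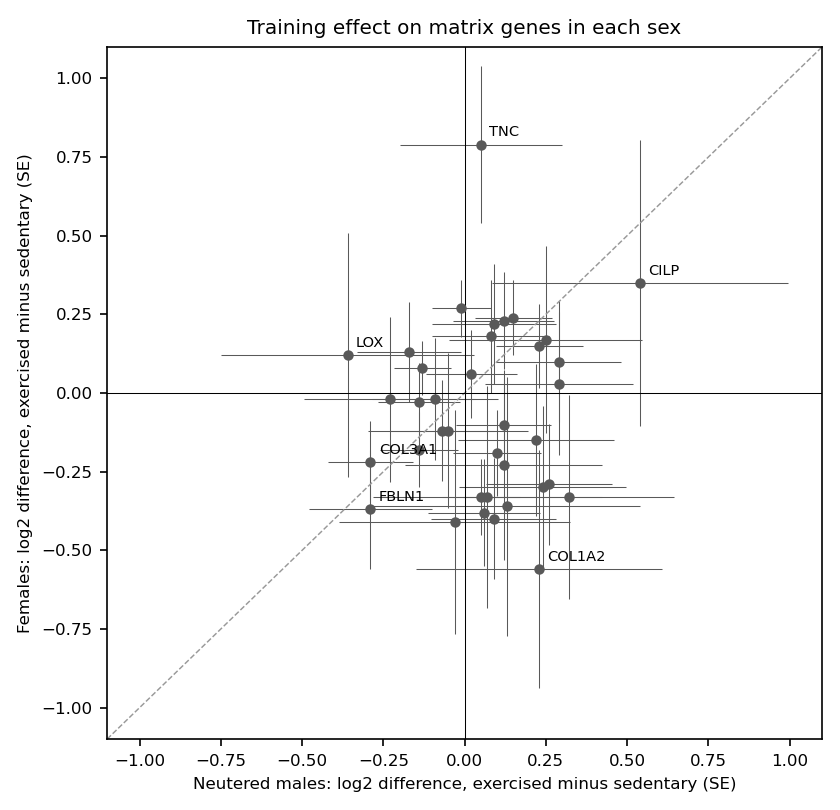
Training effect in females (vertical) against neutered males (horizontal), in log2 with standard errors, for the 37 matrix genes. Points off the dashed line differ between the sexes by value, for example TNC (0.79 in females, 0.05 in males), but the difference passed for none.

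Levels in females and males, averaged over training, also gave 0 of 37 genes past the threshold by limma, against 0.0739% of all genes. At an unadjusted p under 0.05 there were 2 genes, against 10.4% of all genes. COL6A3 averaged 11.47 ± 0.29 log2 in females and 11.12 ± 0.26 in males (SD, n = 8 each), a difference of 0.35 (SE 0.137, adjusted p = 0.537). CILP averaged 8.63 ± 0.71 in females and 7.92 ± 0.72 in males, a difference of 0.71 (SE 0.321, adjusted p = 0.537). Set B held 2 exercised males, 2 sedentary males and 1 sedentary female, so sex and array set are in part mixed in these levels. Set A minus set B was 0.41 for COL6A3 (adjusted p = 0.0311) and 0.89 for CILP, which did not pass (adjusted p = 0.056). The part of array set in the sex differences was not tested.

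More of these genes differed between the sets of arrays than between the training groups, in a comparison chosen after the data were seen. With training and sex in the model, 8 of the 37 genes (21.6%) differed between set A and set B, 4 higher and 4 lower in set A, against 28.0% of all genes. FBN1 averaged 11.83 ± 0.26 log2 in set A and 11.01 ± 0.37 in set B (SD, n = 11 and 5), a fitted difference of 0.76 (adjusted p = 0.00349). VCAN (0.76), LUM (0.58) and COL6A3 (0.41) were also higher in set A. LAMB2 ran from 9.85 to 10.58 in set A and from 10.78 to 11.14 in set B, a difference of -0.84 (SE 0.145, adjusted p = 0.00072). COL6A2 ran from 8.06 to 8.53 in set A and from 8.64 to 9.55 in set B (-0.72, adjusted p = 0.000823). How many of all genes were free of overlap between these sets was not counted. COL4A2 (-0.46) and BGN (-0.33) were lower in set A as well. The origin of this split of the arrays was not tested. With array set as a block in the model for training, 0 of the 37 genes passed.

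**Figure D5:**
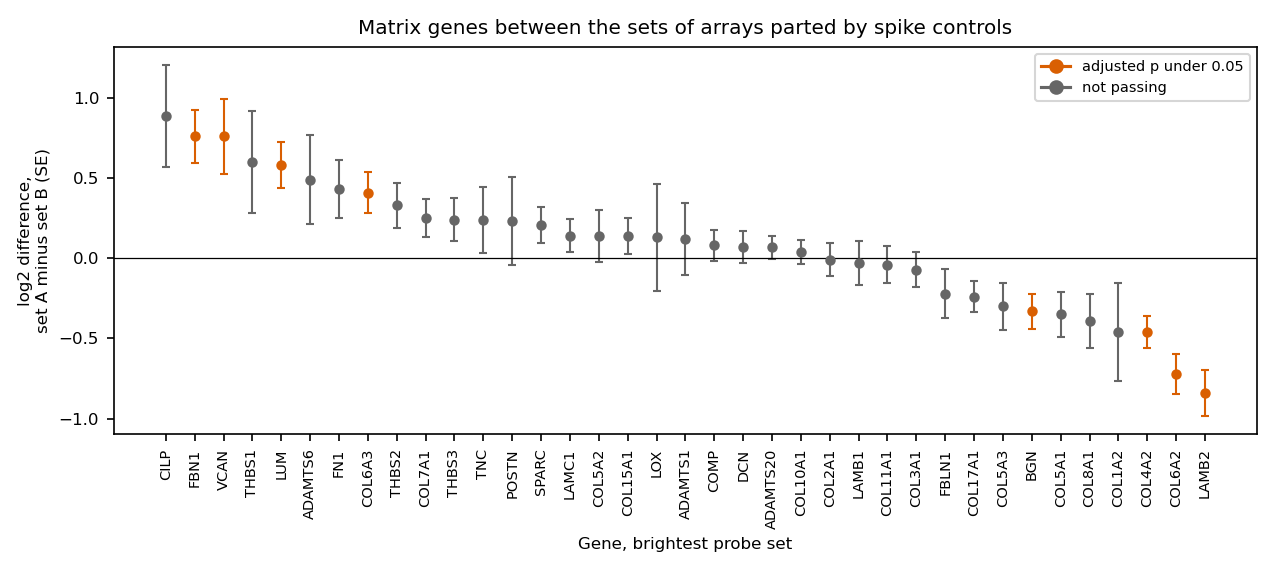
Difference between the sets of arrays, set A minus set B, in log2 with standard errors, for the 37 matrix genes on their brightest probe set. The 8 orange genes passed an adjusted p of 0.05, from FBN1 and VCAN at 0.76 to LAMB2 at -0.84.

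How the genes varied together from animal to animal was described by correlation with COL3A1 over the 16 animals. COL3A1 was read by 1 probe set only, at a mean of 7.57 log2 (percentile 70.7 of all probe sets), below COL1A2 at 8.97. Its r with COL1A2 was 0.41 (permutation p = 0.114, adjusted 0.445). In all, 36 relations were computed. By Pearson's r none passed a Benjamini-Hochberg adjusted permutation p of 0.05, and by Spearman's rho 3 did. COL2A1 had r = 0.67 (permutation p = 0.00459, adjusted 0.165) and rho = 0.75 (permutation p = 0.00114, adjusted 0.0407). COL5A1 had r = 0.56 (permutation p = 0.0225, adjusted 0.27) and rho = 0.72 (permutation p = 0.00226, adjusted 0.0407). TNC ran the other way, with r = -0.61 (permutation p = 0.0119, adjusted 0.214) and rho = -0.69 (permutation p = 0.00366, adjusted 0.0439).

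Without exercised 2 and 3, the animals farthest from the COL3A1 median, r was 0.78 for COL2A1, 0.56 for COL5A1 and -0.54 for TNC. Within the 11 animals of set A it was 0.62 for COL2A1, 0.61 for COL5A1 and -0.55 for TNC, and set B was too small for a value. Within the exercised animals r was 0.3 for COL2A1, 0.42 for COL5A1 and -0.34 for TNC, and within the sedentary animals 0.91, 0.77 and -0.66 for the same genes.

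Among the members are 2 pairs with no protein-coding gene between them in the RefSeq table of assembly Sscrofa11.1. The difference in correlation between the 2 pairs was not tested. DCN and LUM, on chromosome 5, had r = 0.62 over the 16 animals (permutation p = 0.0104, adjusted 0.0208 over both pairs) and rho = 0.57 (permutation p = 0.0219, adjusted 0.0438). Their r was 0.53 without sedentary 4 and exercised 6, and 0.87 within set A. COL3A1 and COL5A2, on chromosome 15, had r = -0.11 (permutation p = 0.693, adjusted 0.693) and rho = 0.12 (permutation p = 0.657, adjusted 0.657), with r = 0.21 without exercised 2 and 3 and -0.18 within set A.

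Beside the 37 members, 46 other genes of the matrix were measured, in 3 lists. Of these 5 passed the test for training by limma, 10.9%, against 10.0% of all genes, a share near that background. Of 12 measured enzymes that process or cross-link collagen, 1 was higher and 0 lower. CRTAP, a partner of collagen prolyl 3-hydroxylation, rose to 9.24 ± 0.26 log2 in exercised animals, against 8.91 ± 0.06 in sedentary animals (SD, n = 8 each; difference 0.32, adjusted p = 0.041). FKBP14, a collagen-folding prolyl isomerase, had -0.40 and did not pass (adjusted p = 0.058). Of 15 measured receptors of the matrix, 1 was higher and 2 lower. The alpha integrin ITGAV, a receptor for fibronectin and vitronectin, fell to 8.75 ± 0.20 in exercised animals, against 9.02 ± 0.08 in sedentary animals (difference -0.26, adjusted p = 0.039). The beta chain ITGB3, which can pair with ITGAV, fell by 0.28 and the collagen receptor chain ITGA2 rose by 0.23, both dim. The brighter beta chains ITGB5 (-0.13, adjusted p = 0.553) and ITGB1 (0.05, adjusted p = 0.762) did not pass.

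Of 19 other basement membrane and matricellular genes, 1 was higher and 0 lower. That gene was FGG, the fibrinogen gamma chain, which rose by 0.49 (adjusted p = 0.00123) at a dim 4.2 log2. CYR61, a matricellular gene induced by stretch and growth factors, averaged 7.82 ± 0.61 in exercised animals and 8.73 ± 0.67 in sedentary animals (SD, n = 8 each), and its difference of -0.91 did not pass (adjusted p = 0.0561). SPP1, osteopontin, averaged 7.41 ± 1.43 in exercised animals and 6.40 ± 0.71 in sedentary animals (difference 1.01, adjusted p = 0.123).

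Markers of the cells that could carry these transcripts were counted beside them. Over all 65 markers on these lists, fibroblasts and cardiomyocytes included, 4 passed (6.15%), against 10.0% of all genes. By limma 0 of 6 smooth muscle and myofibroblast markers, 0 of 4 pericyte and 0 of 10 endothelial markers passed, with medians of -0.073, 0.113 and -0.075 log2. At an unadjusted p under 0.05 there were 0, 1 and 1 of them. Among 7 macrophage markers 1 was higher (ITGAM, 0.54), among 8 lymphocyte markers 2 (CD79B, 0.26, and CD3G, 0.56), and among 4 Schwann and neuronal markers 1 (SOX10, 0.41). All 4 of these are dim. Of the macrophage markers 4 differences were positive and 3 negative (lowest CD14, -0.29), with a median of 0.038 log2. Of the lymphocyte markers 7 were positive and 1 negative (CD4, -0.37), with a median of 0.203. Of the Schwann and neuronal markers 2 were positive and 2 negative, with a median of 0.099. The part of these cells in the values of the matrix genes was not tested. Of 3 adipocyte and 3 red cell markers 0 passed and 0 had an unadjusted p under 0.05.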

How the data were processed

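Biotin-labelled RNA of 16 pig left ventricles was read on a porcine Affymetrix array with 1 channel, per the labels' protocols. The table gives log2 signals, as the authors deposited them; how they were summarised and normalized was not given in the sources used here. The scale was taken to be log2 because values lay between 2.87 and 14.86, with a median of 6.236 on each array. Scanner files were not used here.

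Of 24123 probe sets, 188 controls were left out and 23935 tested. The platform annotation, which can be old, gave 1 symbol for 10069 of them, several for 198 and none for 13668. By Entrez identifier all 37 genes were found among the RefSeq genes of Sscrofa11.1, with 0 symbols changed. It served for names and neighbours only.

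In limma 3.58.1 (R 4.3.3), lmFit and eBayes took a mean per training and sex group over all 16 arrays, with 12 residual degrees of freedom. Tests were two-sided at a Benjamini-Hochberg adjusted p of 0.05, counted over the 23935 probe sets. Every adjusted p for a difference is from limma. Permutation p values for correlations are two-sided, from 100000 resamples. The labels do not say whether the animals shared litters or pens, so p-values measure the spread between these animals.

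Text names the members with the smallest p of each class, those with any probe set that passed, and a fixed list of cardiac matrix genes. The members and lists were chosen with earlier results of these data known. The sets of arrays came from k-means on the mean of the poly-A spike controls. The fits were tested on simulated data. As alternatives the values were quantile normalized or median centred, dim probe sets were filtered, eBayes was trended and robust, arrays were weighted, and the sex term was dropped. Replicate number or array set was a block, set A was used alone, a gene took the mean or the smallest p of its probe sets, the call took a fold limit (0.5 log2) or a looser threshold (0.1), and each animal was left out. Python 3.11.15 with matplotlib 3.10.9 drew the figures.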

Additional observations from a re-analysis of the deposited data

Results flagged for a closer look

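In 86 groups of 8 animals tested, 8 held an animal far from the others by Dixon's ratio, where chance gives about 4.3, at 1 in 20. Exercised 8 accounted for 4 of the 8. It had 10.64 log2 for COL5A1 (next exercised animal 9.94), 8.59 for COL5A3 (next 7.99) and 9.55 for COL6A2 (next 8.67), and a low 4.88 for COL7A1 (next 5.35). In the same animal the mean level of the fibroblast markers was the highest of the exercised group, at 0.43, and the array belonged to set B.

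The other animals each stood apart in a single gene. Exercised 2 had 6.12 log2 for COMP (next 5.85) and exercised 4 had 9.17 for THBS2 (next 8.68). Sedentary 6 had 5.92 for COL17A1 (next 5.66), and sedentary 7 had a low 8.9 for POSTN (next 9.93).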

How the results depend on the processing

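On the brightest probe sets, the counts of 0 higher and 0 lower held under quantile normalization and both filters on dim probe sets. They also held with trended eBayes, array weights, no sex term, an array set block, set A alone and the mean of all probe sets. Median centring and the fold limit also gave 0 and 0, but could hardly test the counts. Each array already had a median of 6.236, and centring called 3209 of all probe sets, against 3197 as reported. A fold limit can only remove calls, so it could not change counts of 0. Leaving out 1 animal gave 0 to 1 higher (COL8A1, COL7A1 or COMP) and 0 to 1 lower (COL3A1). An adjusted p of 0.1 gave 1 lower. The probe set with the smallest p gave 4 higher and 2 lower, a choice that favours calls in any gene with several probe sets. The share of all genes called under these 2 rules was not counted, so these counts are no result about the matrix. The replicate block gave 1 lower, FBLN1 at -0.33 (adjusted p = 0.0113), and called 3528 of all probe sets, against 3197 without it. Array set as a block called 4325. In both groups replicates 1 to 5 lay in set A and 7 and 8 in set B, so replicate number and array set are in part mixed. The cause of the added calls was not tested. The labels do not say that a number marks shared animals or days. Deviations of same-numbered animals correlated at -0.01 to 0.44, with 6 of 8 pairs over 0.1, and 5 of 16 animals correlated best with their own number, so the numbers were not taken to pair the animals. No called value changed sign. Uncalled values turned sign in 73 of 983 fits, over 18 genes.

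For the other 40 probe sets, 4 higher and 2 lower became 0 and 1 above the 40th percentile, where 12 were tested. Above the 60th, where 8 were tested, they became 0 and 0. Over all probe sets 631 of 14361 passed above the 40th percentile and 77 of 9574 above the 60th. Array weights gave 2 higher, set A alone 1 higher and the fold limit 1 higher. The array set block gave 4 lower and an adjusted p of 0.1 gave 5 lower. Leaving out 1 animal gave 1 to 4 higher and 2 to 4 lower. The cause was not tested, apart from the fewer probe sets or animals in the filters and in set A. The limits are 8 animals per group, dim signals without detection calls, and array sets that are uneven over sex.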

Other observations

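Some probe sets are named as pairs that differ only in an ending of A1 or S1, a code left unexplained in the sources used here. This comparison was chosen after the data were seen. Among 11 such pairs of the matrix genes, the S1 member was the brighter in 10 and the training differences had opposite signs in 6. Of these pairs 0 S1 and 2 A1 members passed by limma, the dim probe sets of CILP and COL8A1. Over all 427 such pairs on the array the S1 member was brighter in 60%, the signs were opposite in 43.1%, and 16.2% of S1 and 19% of A1 members passed.

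VCAN differed between the sexes on a dim probe set, with a difference of 0.56 log2 (SE 0.186, female minus male), and did not pass. A THBS1 probe set at a mean of 4.19 log2 had 6.28 in exercised 7, against 3.93 to 4.4 in the other exercised animals and 3.49 to 4.5 in sedentary animals.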
